A study of Mus musculus with 9 samples.

Results

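Prox1, Lyve1, Pdpn, Mmrn1 and Reln, genes known for their activity in lymphatic endothelium, were examined in maps of accessible chromatin from mouse lung endothelial cells. These 5 genes were chosen by name out of 21883 protein-coding genes. A distinct peak of a library counted for the gene whose body held its centre. Where no body did, it counted for the gene whose end was closest, up to 100 kb away. Of the 5 genes, 4 had a peak in at least 1 library and reached the mean of 1 peak per library needed for a test, while Pdpn had no peak in any library.

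ATAC-seq, an assay for chromatin that a transposase can reach, tags DNA where the enzyme is able to cut it. The assay had been run on lung endothelial cells isolated by fluorescence-activated sorting from infant, young adult and mature adult mice, with 3 libraries at each age. Age in days, strain, sex, genotype, treatment and the surface markers of the sort are not given in the labels, and all cells were labelled only as endothelial cells of the lung. Whether the 3 libraries of an age stem from separate animals is not in the labels either. The p-values then measure only the spread between these libraries, which may be technical.

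Lymphatic vessels drain fluid and immune cells from tissues, and in the lung they run along the airways and larger vessels. Their endothelium is set apart from that of blood vessels by the transcription factor PROX1, which switches on and maintains the lymphatic programme. Among the surface and secreted products of these cells are the hyaluronan receptor LYVE1, the mucin-type glycoprotein podoplanin (Pdpn), the extracellular glycoprotein multimerin 1 (Mmrn1) and reelin (Reln), a secreted guidance protein best known from the developing brain. None of these genes is restricted to lymphatic cells: podoplanin is also made by alveolar type 1 cells, and LYVE1 is also found on some macrophages.

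The infant lists held 88856 to 94646 distinct peaks, the young adult lists 67550 to 68366 and the mature adult lists 59793 to 64208, with median widths between 396 and 462 bp over all 9 libraries. Sequencing depth is unknown, and a more deeply sequenced library can give more peaks, so each gene was read both after scaling to the length of the list and unscaled. The median change of all 14506 genes tested was 0.13 in young adult and 0.14 in mature adult against infant libraries on the log2(scaled peak number + 0.5) scale, and -0.25 and -0.31 unscaled. Among the adults, 2 libraries stood apart. In young adult replicate 3, 7.79% of regions were its own, and in mature adult replicate 1 the share was 8.10%, whereas the remaining 4 adult libraries had 1.88% to 3.31% and the infants 4.24% to 7.03%. All 8 pan-endothelial marker genes (Pecam1, Cdh5, Kdr, Tek, Erg, Emcn, Tie1 and Cldn5) had peaks in all 9 libraries. Of the defining markers of other cell types, Sftpc (alveolar type 2 cells), Cd68 and C1qa (macrophages), Itgam (leukocytes), Lum (fibroblasts) and Msln (mesothelium) had no peak in any library, and Ager (alveolar type 1 cells) had one in 1 library.

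The promoters of 4 of the 5 genes are shown because the ages parted at some of them and not at others. Each line gives 250 bases before and 50 bases after the start annotated by RefSeq on build GRCm38.p6, the same build as mm10, on the strand of the gene. Capitals mark matches to 11 short motifs searched on both strands: the ETS core CGGAAG, the SOX motif ACAAAG, the GATA motif AGATAA, the nuclear receptor motif AGGTCA, the AP-1 motif TGAGTCA, the NFAT motif TGGAAA, the KLF/SP motif GGGCGG, the E-box motif CAGCTG, the TATA box motif TATAAA, the CCAAT box motif CCAAT and the forkhead motif TGTTTAC. The outermost Prox1 promoter (chr1:190170778-190171077, minus strand) was overlapped by a peak in all 9 libraries, the Mmrn1 promoter (chr6:60944067-60944366, plus strand) in every infant and no adult list, the Reln promoter (chr5:22344656-22344955, minus strand) in infant replicates 1 and 2 only, and the Pdpn promoter (chr4:143299515-143299814, minus strand) in none.
Prox1 promoter: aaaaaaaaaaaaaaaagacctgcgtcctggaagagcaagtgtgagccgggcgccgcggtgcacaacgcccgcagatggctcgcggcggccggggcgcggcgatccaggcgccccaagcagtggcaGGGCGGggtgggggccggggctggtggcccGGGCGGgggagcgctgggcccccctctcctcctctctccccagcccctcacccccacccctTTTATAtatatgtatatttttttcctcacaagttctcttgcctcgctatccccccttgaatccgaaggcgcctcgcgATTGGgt
Mmrn1 promoter: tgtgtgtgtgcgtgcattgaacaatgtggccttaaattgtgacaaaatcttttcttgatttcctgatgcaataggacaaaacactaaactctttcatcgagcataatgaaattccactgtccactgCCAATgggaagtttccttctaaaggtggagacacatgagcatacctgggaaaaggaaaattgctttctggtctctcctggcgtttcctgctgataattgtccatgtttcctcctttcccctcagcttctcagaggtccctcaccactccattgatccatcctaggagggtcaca
Reln promoter: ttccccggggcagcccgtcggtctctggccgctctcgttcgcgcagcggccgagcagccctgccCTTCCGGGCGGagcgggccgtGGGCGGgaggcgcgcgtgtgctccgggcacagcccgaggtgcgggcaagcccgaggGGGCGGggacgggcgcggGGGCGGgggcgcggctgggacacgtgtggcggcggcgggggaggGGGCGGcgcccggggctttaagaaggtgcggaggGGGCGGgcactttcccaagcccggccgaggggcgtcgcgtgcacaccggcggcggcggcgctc
Pdpn promoter: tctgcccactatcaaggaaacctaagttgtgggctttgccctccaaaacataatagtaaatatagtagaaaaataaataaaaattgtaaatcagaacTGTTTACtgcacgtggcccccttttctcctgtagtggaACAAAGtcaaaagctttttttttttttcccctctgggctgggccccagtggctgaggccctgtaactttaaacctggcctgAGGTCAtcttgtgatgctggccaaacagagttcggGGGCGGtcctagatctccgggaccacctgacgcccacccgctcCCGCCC
Of the 21262 entries of protein-coding genes in the RefSeq promoter table, 49.0% were overlapped by a peak in all 9 libraries, as the Prox1 promoter was. A pattern like that of Mmrn1, open in every infant list but in no adult list, was found at 2.14% of them, and at least 1 infant and no adult library, as at Reln, at 4.73%. No peak in any library, as at Pdpn, was found at 39.9%.

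In base composition the promoters ran from 44.3% G and C at Mmrn1 and 48.7% at Pdpn to 64.3% at Prox1 and 80.7% at Reln, where the median over the 21237 of them with distinct positions was 56.3%. The Reln promoter held 6 matches to the KLF/SP motif, which occurred in 46.2% of all promoters, and 1 to the ETS core, which occurred in 21.1% and here overlapped the first KLF/SP match by 1 base. The Prox1 promoter held 2 KLF/SP matches, a TATA box match 34 bases before the annotated start on the other strand (12.6% of promoters had a TATA box match) and a CCAAT match after it (38.2%). The Mmrn1 promoter held a single CCAAT match. The Pdpn promoter, although without a peak, held 2 KLF/SP matches and 1 each to the SOX (16.8% of promoters), nuclear receptor (14.7%) and forkhead (3.00%) motifs. Matches to the GATA, AP-1, NFAT and E-box letters, present in 9.65%, 4.66%, 19.3% and 15.6% of all promoters, were in none of these 4 windows. A match describes letters only and is not evidence of a bound factor.

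**Figure D1:**
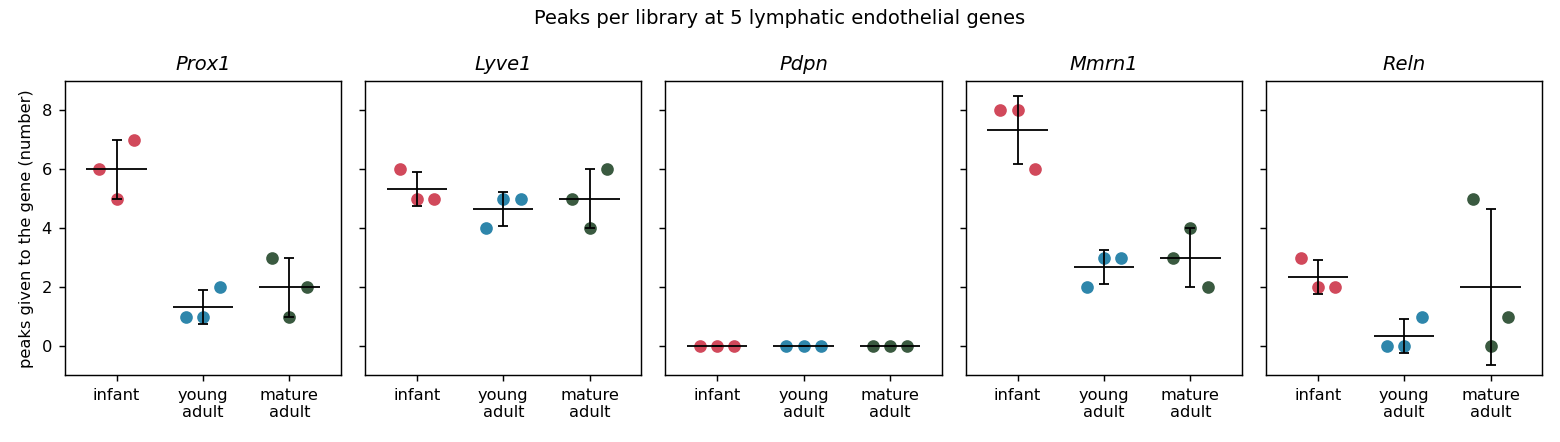
Number of distinct peaks given to each of the 5 genes (vertical axis) in each library, with infant, young adult and mature adult libraries from left to right, 1 point a library and a bar for the mean of each age. Prox1 (infant 5 to 7) and Mmrn1 (infant 6 to 8) had more peaks in every infant library than in any adult library, Lyve1 stayed between 4 and 6 at all ages, Pdpn was at 0 throughout, and Reln reached 5 only in mature adult replicate 1.

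Prox1, the transcription factor that specifies lymphatic identity, had fewer peaks in both adult ages than in infants, but its start stayed open in every library. The gene lies on chromosome 1 at 190118035 to 190170827 on the minus strand and is 52.8 kb long, with Smyd2 as its neighbour on one side and Rps6kc1 on the other. The infant libraries had 6, 5 and 7 peaks at Prox1, the young adult libraries 1, 1 and 2, and the mature adult libraries 3, 1 and 2. No adult library reached the lowest infant library, while the ranges of young and mature adults overlapped.

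Between young adult (1.33 ± 0.58 peaks) and infant libraries (6 ± 1 peaks, SD, n = 3 each) the number fell by 1.49 ± 0.36 (SE) on the log2 scale after scaling, with a limma adjusted p of 0.0151, and the unscaled change was -1.86, with an adjusted p of 0.0147. In the comparison of young adult with infant libraries, 9.33% of all genes were called lower after scaling and 17.4% unscaled. Among all genes tested, 27.3% had every young adult library below every infant library without scaling, and 35.5% every mature adult library. Mature adult libraries (2 ± 1 peaks) differed from infant libraries by -0.98 on the scaled log2 scale, which did not pass (adjusted p = 0.0645), and fell by 1.45 on the unscaled log2 scale (adjusted p = 0.0241), where 13.9% and 29.3% of all genes were called lower. Mature adult replicate 1 stood apart and carried a 150 bp peak at Prox1 seen nowhere else. Without it, the scaled number in mature adults fell by 1.30 (adjusted p = 0.0232). Of the 9 fits that left out 1 library only this 1 passed, with adjusted p of up to 0.162 in the others. Without infant replicate 3 the young adult change was -1.36 (adjusted p = 0.0510).

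The bases covered by peaks at Prox1 fell in both adult ages. They came to 4357, 2627 and 3554 bp in the infant libraries, 921, 1155 and 934 bp in the young adult libraries and 858, 444 and 737 bp in the mature adult libraries, so that adults and infants did not overlap. Without scaling, 59.1% of all genes tested had every young adult library below every infant library in covered bases, and 70.0% every mature adult library. Covered bases changed by -1.21 ± 0.25 (SE) in young adult and by -1.64 ± 0.25 in mature adult against infant libraries on the scaled log2(bases + 100) scale, with limma adjusted p of 0.00787 and 0.00132. After scaling, 12.1% and 18.9% of all genes were called lower in covered bases in these comparisons. Mature and young adults differed by -0.42 (adjusted p = 0.489), where 0.965% of all genes were called. In libraries made from all sorted cells together, fewer lymphatic cells and less open chromatin per cell cannot be told apart.

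Most infant peaks missing from the adult lists lay away from the outermost start of Prox1, and some overlapped its second annotated promoter. Peaks of the 9 libraries merged into 8 regions at this gene, of which 1 was present in all 9 libraries, 3 in all infant and no adult library, and 3 in a single library. The region at the start (chr1:190169908-190171119) was covered over 1206, 954 and 1202 bp in infants, 921, 1155 and 664 bp in young adults, and 708, 444 and 737 bp in mature adults. It was therefore present at every age, and the covered length of infants overlapped that of young adults but not that of mature adults. The widest peak there stood at the 86.4th to 94.8th percentile of peak widths of its own library in infants, at the 74.8th to 93.9th in young adults and at the 50.5th to 60.6th in mature adults, where it was also broken in 2 in replicates 1 and 3.

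The 3 infant regions were found 133 kb downstream of the start and beyond the far end of the gene (chr1:190037543-190038700, 1116, 756 and 973 bp covered), 45.7 kb downstream inside the gene (chr1:190124935-190125357, 416, 342 and 381 bp) and at -44.0 kb, upstream of the start (chr1:190214417-190215149, 699, 575 and 425 bp). No adult library had a peak in any of them. A region centred 1.66 kb inside the gene was covered in infant replicates 1 and 3 and, at its far end, in young adult replicate 3. The second annotated Prox1 promoter (chr1:190169466-190169765) was overlapped by the peaks of those infant libraries and by none of the adults. Counting only peaks within 10 kb of the gene, the change in peak number was -0.48 (adjusted p = 0.264) in young adult and -0.13 (adjusted p = 0.745) in mature adult against infant libraries. Covered bases within 10 kb still fell by 0.80 in mature adults (adjusted p = 0.0172), against a change of -0.29 in young adults (adjusted p = 0.330).

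**Figure D2:**
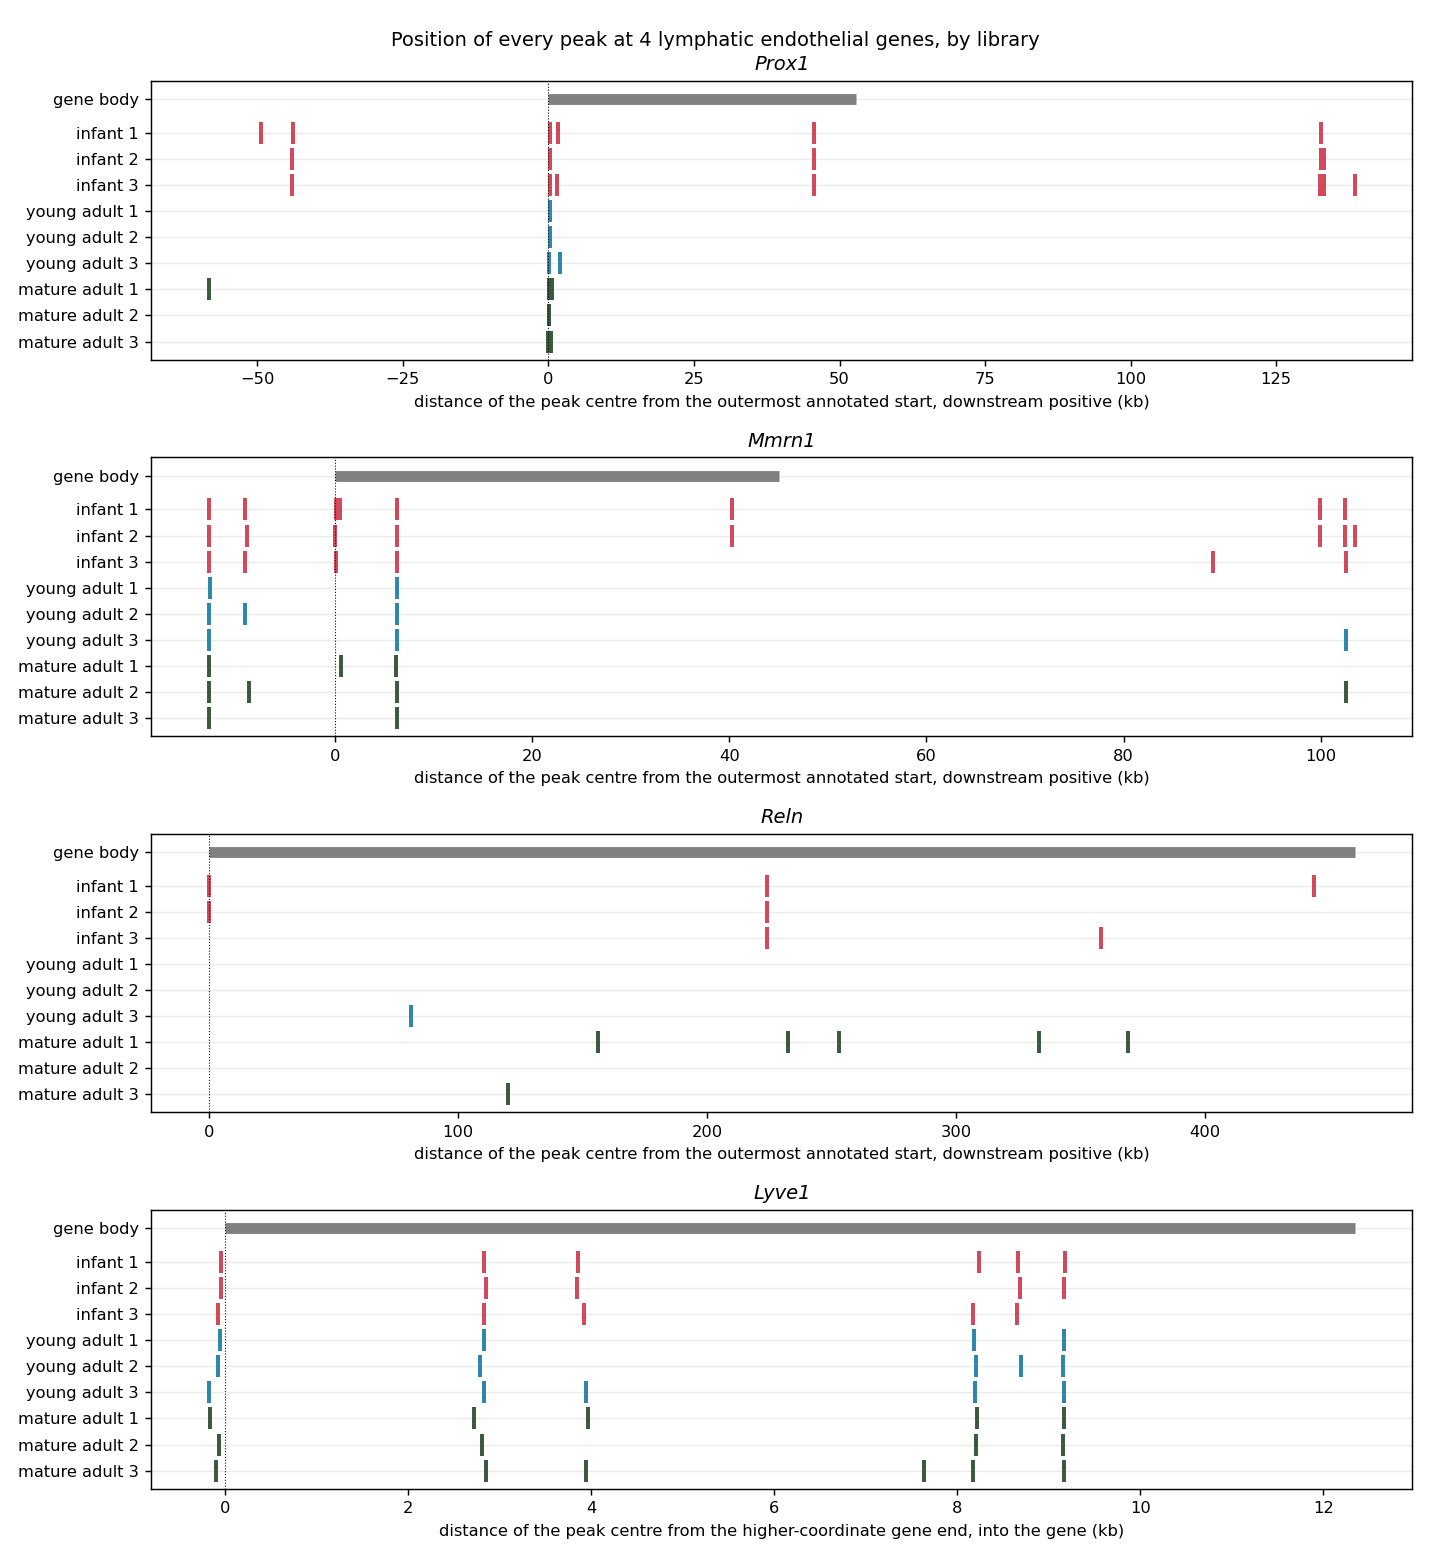
Position of the centre of every peak at Prox1, Lyve1, Mmrn1 and Reln (horizontal axis, kb from the outermost annotated start with downstream positive, or for Lyve1 from the higher-coordinate gene end), with 1 row per library in the order infant, young adult, mature adult from top to bottom. At Prox1 the column of peaks at the start ran through all 9 libraries, while those at 133 kb, 45.7 kb and -44.0 kb were in infant rows only.

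Lyve1, which encodes the hyaluronan receptor of lymphatic endothelium, had a similar number of peaks at all ages, although not all of its regions were shared. It is a compact gene of 12.3 kb on chromosome 7 at 110850607 to 110862953, with Rnf141 and Mrvi1 within 10 kb on either side. The infant libraries had 6, 5 and 5 peaks, the young adult libraries 4, 5 and 5, and the mature adult libraries 5, 4 and 6, so that all ages overlapped. The number averaged 4.67 ± 0.58 in young adults and 5 ± 1 in mature adults, against 5.33 ± 0.58 in infants (SD, n = 3 each). After scaling, 26.1% of all genes were called higher in young adult and 30.4% in mature adult against infant libraries, but Lyve1 was not among them. The scaled change was 0.21 (limma adjusted p = 0.350) in young adult and 0.40 (adjusted p = 0.0741) in mature adult against infant libraries, and the unscaled changes were -0.18 (adjusted p = 0.510) and -0.10 (adjusted p = 0.752). Mature adult replicate 2 had the fewest Lyve1 peaks of that age. Without it, the scaled number in mature adults was higher than in infants by 0.56 (adjusted p = 0.0122). Of the 9 fits that left out 1 library only this 1 passed, with adjusted p of up to 0.201 in the others.

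The covered length at Lyve1 was 2902, 2410 and 2349 bp in infants, 2259, 2541 and 2395 bp in young adults, and 2040, 2338 and 2430 bp in mature adults, which again overlapped. After scaling to the shorter adult lists, the covered bases were higher by 0.40 ± 0.08 (SE) in young adults and by 0.44 ± 0.08 in mature adults (adjusted p = 0.00672 and 0.00228), where 26.6% and 34.6% of all genes were called higher. Unscaled, the direction turned, with changes of -0.08 (adjusted p = 0.535) and -0.16 (adjusted p = 0.211). The peaks merged into 7 regions, and 2 of them were present in all 9 libraries. These were a region inside the gene (chr7:110859657-110860574), covered over 683 to 902 bp in every library, and one across the higher-coordinate gene end (chr7:110862623-110863426), covered over 413 to 795 bp.

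A trio of closely spaced regions nearer the lower-coordinate end of Lyve1 varied between libraries. The outer 2 (chr7:110853608-110853963 and chr7:110854548-110854961) were each present in all 6 adult libraries and in 2 of 3 infant libraries. The one between them (chr7:110854096-110854440) was present in the 3 infant libraries, in young adult replicate 2 and in no mature adult library. A further region inside the gene (chr7:110858856-110859353) was present in the 3 infant libraries, in young adult replicate 3 and in mature adult replicates 1 and 3. Apart from a 153 bp peak in mature adult replicate 3, no Lyve1 region was confined to 1 age.

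Pdpn, which encodes podoplanin, had no peak in any of the 9 libraries. The gene lies on chromosome 4 at 143267409 to 143299564 on the minus strand and is 32.2 kb long. The peak nearest to it was 28670, 26113 and 28387 bp away in the infant libraries, and between 54052 and 54244 bp away in all 6 adult libraries, and in each case it was nearer to a neighbouring gene, Prdm2 or Lrrc38. The adult distances were nearly equal because they ended at the same peak beside Prdm2. Of all 21883 genes, 4554 (20.8%) had no peak in any library, and absence from a list does not mean closed chromatin.

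Mmrn1, which encodes the extracellular glycoprotein multimerin 1, had fewer peaks in adults than in infants, and its start had a peak overlapping the promoter in infants alone. It lies on chromosome 6 at 60944317 to 60989378 on the plus strand and is 45.1 kb long. The infant libraries had 8, 8 and 6 peaks, the young adult libraries 2, 3 and 3, and the mature adult libraries 3, 4 and 2. As at Prox1, no adult library reached the lowest infant library. Without scaling, 27.3% of all genes tested had every young adult library below every infant library, and 35.5% every mature adult library.

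Peak number fell by 0.93 ± 0.24 (SE) on the scaled log2 scale in young adult (2.67 ± 0.58 peaks) against infant libraries (7.33 ± 1.15 peaks, SD, n = 3 each), with a limma adjusted p of 0.0201, and the unscaled change was -1.31 (adjusted p = 0.0152). In mature adults (3 ± 1 peaks) it fell by 0.70 ± 0.24 against infants with an adjusted p of 0.04995, at the edge of the threshold of 0.05, and the unscaled change was -1.19 (adjusted p = 0.0148). In young adults 9.33% of all genes were called lower scaled and 17.4% unscaled, and in mature adults 13.9% and 29.3%. Mature and young adults differed at Mmrn1 by 0.23 on the scaled log2 scale (adjusted p = 0.656). The scaled call in young adults was lost without infant replicate 1 (adjusted p = 0.0642), infant replicate 2 (0.0649) or young adult replicate 1 (0.0595). The scaled call in mature adults was lost without infant replicate 1 (adjusted p = 0.127), 2 (0.135) or 3 (0.0587), young adult replicate 2 (0.0658) or 3 (0.0592), or mature adult replicate 1 (0.0861) or 3 (0.116).

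Covered bases at Mmrn1 were 2621, 2883 and 2118 bp in infants, 753, 960 and 1411 bp in young adults, and 1105, 1549 and 790 bp in mature adults, with no overlap between infants and adults; the shares of all genes given above for Prox1 apply here too. After scaling, the changes against infants were -0.77 in young adults (adjusted p = 0.0592) and -0.52 in mature adults (adjusted p = 0.146). Unscaled, covered bases changed by -1.24 and -1.12 (adjusted p = 0.00905 and 0.00890), where 38.6% and 55.9% of all genes were called lower. Without young adult replicate 3 the scaled young adult change was -1.04 (adjusted p = 0.0180), and without mature adult replicate 3 the fit gave that comparison an adjusted p of 0.0401.

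Peaks at Mmrn1 merged into 10 regions. The 2 regions present in all 9 libraries lay away from the start, at -12.8 kb (chr6:60931170-60931833, 446 to 635 bp covered) and 6.23 kb downstream inside the gene (chr6:60950340-60950744, 153 to 392 bp). The region at the start (chr6:60944247-60944509) was covered over 201, 171 and 167 bp in the infant libraries and over 0 bp in every adult library. Those infant peaks were narrow, at the 7.67th to 10.7th percentile of widths in their libraries. Regions at -8.97 kb and at 103 kb downstream were present in all 3 infants and in 1 library of each adult age.

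**Figure D3:**
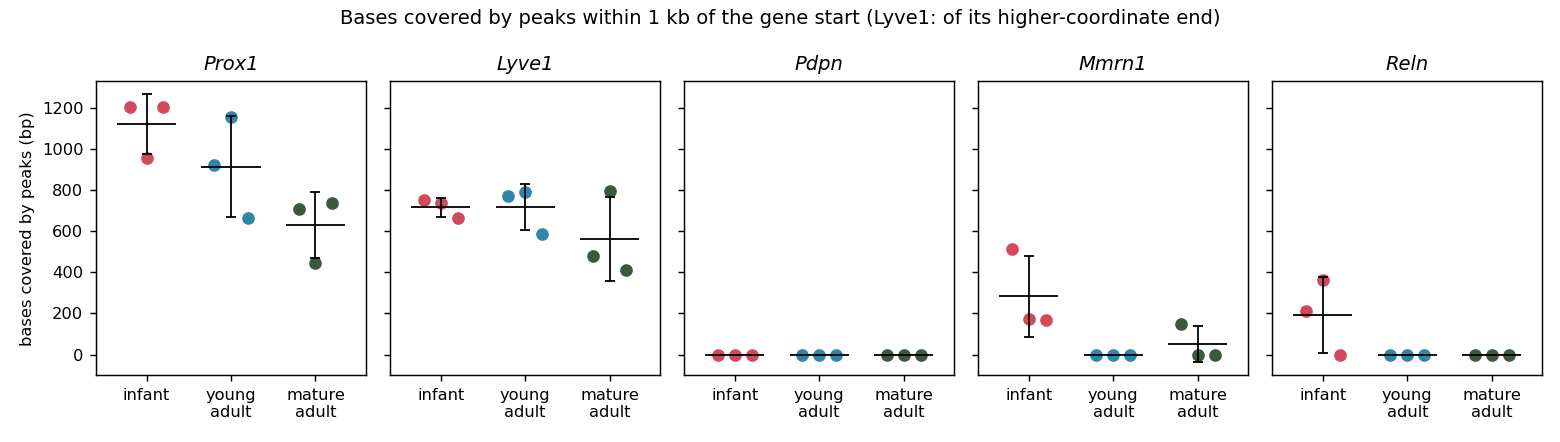
Bases covered by peaks within 1 kb on either side of the outermost annotated start (vertical axis, bp; for Lyve1 the higher-coordinate gene end) for each gene and library, with infant, young adult and mature adult libraries from left to right and a bar for the mean of each age. Prox1 was covered in all libraries (444 to 1206 bp), Mmrn1 in all infants and mature adult replicate 1 (150 bp), Reln in infant replicates 1 and 2 (213 and 364 bp), and Pdpn in none.

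Reln, which encodes the secreted protein reelin, had few and scattered peaks for its length, and no comparison between ages passed the test. It spans 460 kb of chromosome 5, from 21884454 to 22344705 on the minus strand. The infant libraries had 3, 2 and 2 peaks, the young adult libraries 0, 0 and 1, and the mature adult libraries 5, 0 and 1. Every young adult library lay below every infant library, as at 27.3% of all genes tested. Mature adults ranged from below to above the infants.

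The scaled change was -1.68 ± 0.91 (SE, limma adjusted p = 0.199) in young adults (0.33 ± 0.58 peaks) against infants (2.33 ± 0.58 peaks, SD, n = 3 each), and -0.41 (adjusted p = 0.732) in mature adults (2 ± 2.65 peaks). When both libraries that stood apart were left out, the young adult change was -2.28 (adjusted p = 0.0205) and the mature adult change -1.39 (adjusted p = 0.0813). Those 2 libraries held 6 of the 7 adult Reln peaks. The covered bases came to 709, 658 and 534 bp in infants, 0, 0 and 203 bp in young adults, and 1023, 0 and 150 bp in mature adults. Their scaled changes were -1.98 (adjusted p = 0.117) in young adults and -0.80 (adjusted p = 0.483) in mature adults, and without mature adult replicate 1 the young adult change was -2.01 (adjusted p = 0.0455).

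Of the 11 Reln regions, 9 were found in a single library. The exceptions were a region 224 kb inside the gene (chr5:22120421-22120836), covered over 346, 294 and 380 bp in infants and absent from the adult lists, and the region at the promoter, covered over 213 and 364 bp in infant replicates 1 and 2. The 5 peaks of mature adult replicate 1 were 150 to 271 bp wide, all at or below the 30.5th percentile of that library, and none overlapped a peak of another library.

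Over the 5 genes, peaks merged into 36 regions. All 9 libraries shared 5 of them, 13.9%, against 34.6% of the regions at all genes. Another 5 were present in every infant list and absent from the adult lists, 13.9% against 9.46%. None was found in all adult and no infant library, against 0.716%, and 15 (41.7%) were found in a single library, against 21.3%. Of those 15, 6 came from mature adult replicate 1. Without infant replicate 3, when only the other infant libraries had to hold a region, the infant-only number was 8.

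Fibroblast and mural as well as mesothelial marker genes had lower summed peaks in every adult than in any infant library, scaled and unscaled. Prox1 and Mmrn1 did too. Alveolar type 2 genes did so in mature adults. Of 11 fibroblast and mural cell genes, 9 were tested. In peak number, 7 of these were lower in young adults than in infants both scaled and unscaled, among them Col1a1, Pdgfra and Pdgfrb. In mature adults 5 were lower. Of all genes, 9.25% and 13.9% were lower by that rule in young and mature adults. The summed peak number of the 11 genes was 73 to 82 in infant, 26 to 31 in young adult and 23 to 26 in mature adult libraries. The 5 mesothelial markers summed to 16 to 18, 6 to 9 and 4 to 5 peaks in the same order. Of the 2 tested, only Wt1 was lower, in both adult ages. For macrophages (9 genes) the sums were 16 to 17, 8 to 15 and 6 to 13, for alveolar type 2 cells (7 genes) 30 to 34, 20 to 25 and 16 to 19, for leukocytes (6 genes) 7 to 8, 5 to 12 and 6 to 7, and for alveolar type 1 cells (8 genes) 54 to 60, 48 to 53 and 45 to 53. The pan-endothelial genes summed to 180 to 191, 158 to 175 and 145 to 171 peaks, and the 8 blood capillary genes to 87 to 92, 76 to 85 and 74 to 86, with none of either list lower on both scales. Scaled to the mean library total of peaks, as in the tests, every adult library had higher sums than every infant library for 3 lists. The pan-endothelial sums became 149.0 to 156.6 in infant, 172.7 to 189.0 in young adult and 179.03 to 200.05 in mature adult libraries, the capillary sums 68.6 to 75.4, 83.1 to 92.5 and 91.4 to 100.6, and the alveolar type 1 sums 44.3 to 49.0, 52.2 to 57.9 and 55.6 to 62.0. After scaling, 3 of 8 pan-endothelial genes were called higher in young and 6 in mature adults against infants. For capillary genes these counts were 6 and 5 of 8, and for alveolar type 1 genes 3 and 3 of the 5 tested. Among all genes, 26.1% and 30.4% were called higher. In the same order of ages, the scaled fibroblast and mural sums were 59.9 to 66.5, 28.1 to 33.9 and 26.9 to 32.1. The mesothelial sums became 12.5 to 14.8, 6.56 to 9.72 and 4.60 to 6.17. For alveolar type 2 genes they were 24.9 to 26.5, 21.9 to 27.2 and 18.4 to 22.2, so only mature adults lay apart from infants. Of the 4 alveolar type 2 genes tested, Sftpb was lower both scaled and unscaled in mature adults. The scaled sums of macrophage genes, 13.1 to 14.1, 8.74 to 16.3 and 7.41 to 15.2, overlapped between all ages, and the leukocyte sums of young adults overlapped those of infants on both scales. The part of fibroblast, mural, mesothelial and alveolar type 2 cells in the results for Prox1 and Mmrn1 was not tested.

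Other genes of lymphatic development were read from 4 lists of 42 genes in all, of which 41 were tested and Ccl21a had no peak. In young adult against infant libraries, 6 of the 41 were lower and none higher both scaled and unscaled, where 9.25% of all genes were lower and 1.10% higher by that rule. In mature adult against infant libraries 10 were lower and 1 higher, where 13.9% and 1.42% of all genes were. After scaling alone the counts were 6 lower and 7 higher in young adults and 10 lower and 9 higher in mature adults. The median changes after scaling were 0.16 in young and 0.01 in mature adults, beside 0.13 and 0.14 over all genes. Between mature and young adults none of the 41 passed by limma in peak number, where 0.938% of all genes did after scaling, although 4 of them had an unadjusted p under 0.05 after scaling. In scaled covered bases Gja1, a connexin gene named here after its value was seen, fell by 0.75 in mature against young adults (adjusted p = 0.0469), while the unscaled change of -0.87 did not pass (adjusted p = 0.0783). A list gene is called lower or higher here only where the adjusted p passed both scaled and unscaled, unless the scale is named.

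Among 12 growth factor and receptor genes only Nrp2, the co-receptor for VEGF-C on lymphatic endothelium, was lower in peak number on both scales. It had 21, 21 and 17 peaks in infants, 9, 10 and 7 in young adults, and 6, 6 and 7 in mature adults, and changed by -0.74 ± 0.14 (SE) in young and -1.03 ± 0.14 in mature adults against infants after scaling (limma adjusted p = 0.00412 and 0.000534). Flt4, which encodes VEGFR-3, the main receptor for VEGF-C, had 12, 12 and 12 peaks in infants, 13, 12 and 11 in young adults, and 11, 12 and 10 in mature adults. It was higher by 0.40 in both comparisons after scaling (adjusted p = 0.00742 and 0.00663), while its unscaled changes were -0.0031 (adjusted p = 1) and -0.12 (adjusted p = 0.294). Vegfc, the ligand, had 8, 6 and 6 peaks in infants. It had 2, 4 and 5 in young adults and 3, 4 and 5 in mature adults. Its peak number passed on neither scale (scaled adjusted p = 0.284 and 0.647). Its covered bases passed only unscaled, with changes of -0.74 and -0.71 (adjusted p = 0.0458 and 0.0382). By covered bases, Nrp2 and Ccbe1 were lower on both scales in both adult ages, Adamts3 in mature adults and Vegfd in young adults. After scaling, 12.1% and 18.9% of all genes were called lower in covered bases in young and mature adults.

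Of the 10 transcription factor genes, Maf and Tbx1 were lower in peak number in young adults, and Tbx1, Nr2f2 and Hoxd3 in mature adults. Nr2f2 encodes COUP-TFII, a partner of PROX1, and had 15, 14 and 13 peaks in infants, 6, 8 and 6 in young adults, and 3, 7 and 6 in mature adults, with a scaled change of -0.87 in mature adults (adjusted p = 0.0287). Sox18, the factor that switches on Prox1 in the embryo, went the other way in peak number. It had 4, 4 and 4 peaks in infants, 5, 4 and 5 in young adults, and 5, 5 and 5 in mature adults, and was higher in mature adults by 0.78 scaled and by 0.29 unscaled (adjusted p = 0.000341 and 0.0299). Hoxd3, a homeobox gene, fell by 1.42 in mature adults (adjusted p = 0.00987). Tbx1, a T-box factor needed for lymphatic vessels in mice, changed by -1.16 in young and -1.23 in mature adults (adjusted p = 0.0287 and 0.0193). Maf changed by -1.56 in young adults (adjusted p = 0.0283). By covered bases, Maf, Tbx1, Nr2f2 and Hoxd3 were each lower on both scales in both adult ages. The scaled adjusted p of Hoxd3 in young adults was 0.0496. Covered bases of Sox18 were higher in mature adults by 0.55 after scaling (adjusted p = 0.000996). Their unscaled change was -0.044 (adjusted p = 0.588).

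In the list of 14 adhesion, valve and chemokine genes, 2 were lower in peak number in young and 4 in mature adults. Itga9, the integrin subunit needed for lymphatic valves, had 45, 39 and 45 peaks in infants, 20, 16 and 15 in young adults, and 13, 14 and 12 in mature adults, and changed by -0.90 and -1.15 after scaling (adjusted p = 0.000661 and 0.000127). Fn1, which encodes its ligand fibronectin, fell by 1.24 in mature adults (adjusted p = 0.00715), and Celsr1, a cadherin of planar cell polarity that acts in valve formation, fell by 1.67 (adjusted p = 0.00468). Cd44, a hyaluronan receptor related to Lyve1, had 18, 17 and 17 peaks in infants. It had 6, 10 and 8 in young adults and 8, 7 and 8 in mature adults. Its scaled changes were -0.69 and -0.60 (adjusted p = 0.0141 and 0.0211). By covered bases, Celsr1 was also lower on both scales in young adults, and Gja1 and Thy1 in mature adults.

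Of the receptors for reelin, Lrp8 was lower in peak number in both adult ages and Vldlr in mature adults. Reln itself passed in neither age. Lrp8 had 11, 9 and 11 peaks in infants, 3, 1 and 1 in young adults, and 2, 2 and 1 in mature adults, and changed by -2.06 ± 0.37 (SE) and -1.88 ± 0.37 after scaling (limma adjusted p = 0.00363 and 0.00515). Vldlr had 12, 10 and 12 peaks in infants, 5, 4 and 4 in young adults, and 1, 1 and 3 in mature adults, and fell by 2.10 ± 0.33 in mature adults (adjusted p = 0.00138). Its scaled change in young adults was -0.90 (adjusted p = 0.0694). The other partners on that list, Dab1, Clec1b, Mmrn2 and Sema3a, were not called on both scales by peak number in any comparison. By covered bases, Lrp8 and Vldlr were lower on both scales in both adult ages, and Dab1 in young adults. Of the list calls named with a scaled value, those of Nr2f2 (in 6 of 9), Maf (5), Tbx1 (5 in young and 7 in mature adults) and Cd44 in mature adults (5) did not hold in all 9 fits that left out 1 library, with adjusted p of up to 0.0800, 0.0819, 0.0836, 0.0595 and 0.0660 in that order.

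**Figure D4:**
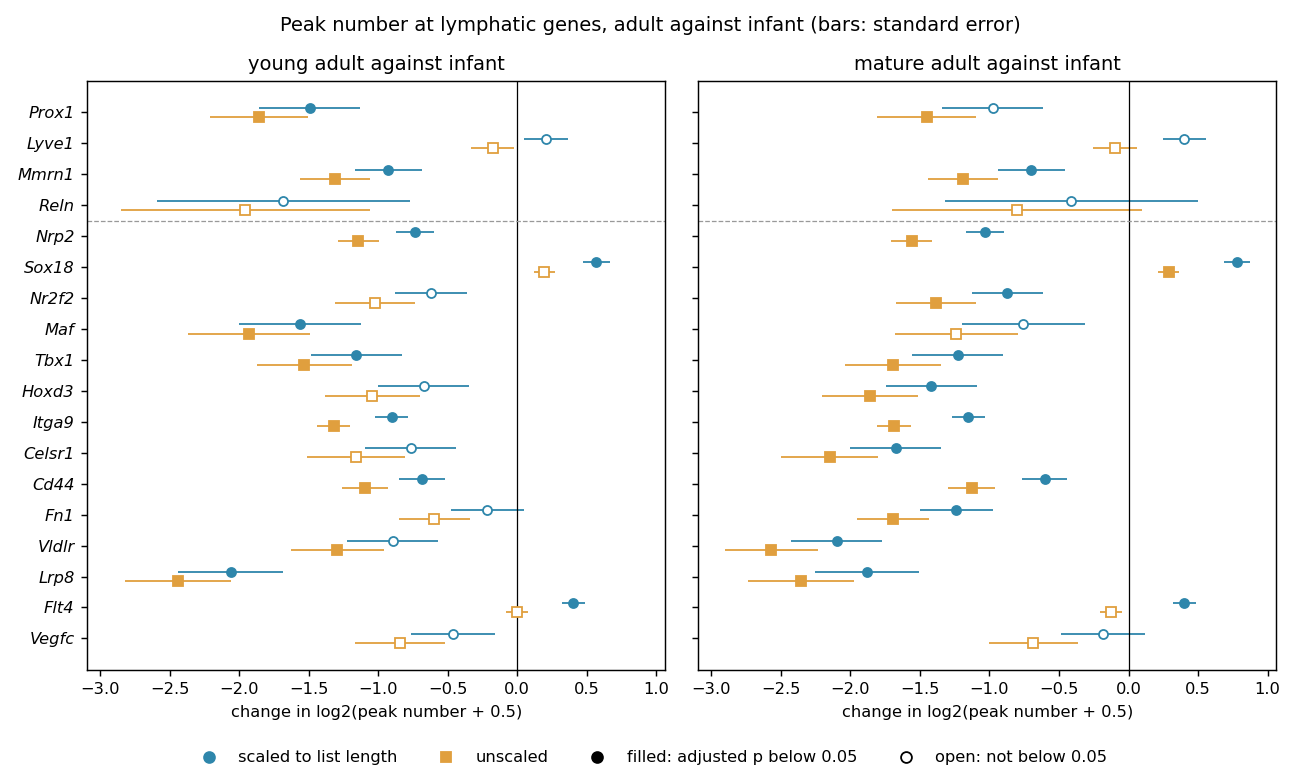
Change in log2(peak number + 0.5) for the 4 members tested and the named list genes (horizontal axis, with standard error), young adult against infant and mature adult against infant, scaled to list length (circles) and unscaled (squares), filled where the adjusted p was below 0.05. Prox1 and Mmrn1 lay left of 0 on both scales, Nrp2, Itga9, Lrp8 and Vldlr likewise, while Lyve1 and Flt4 lay on either side of 0 depending on scaling.

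The genes whose peak numbers over the 9 libraries were most like those of each member were named by Pearson's r of log2(scaled number + 0.5), as a description over libraries that share their list lengths. For Prox1 these were Gm2137 (r = 0.973) and Tmc3 (0.944), and for Mmrn1 they were Bpgm (0.982) and Txnrd3 (0.968). For Lyve1 they were Arhgap6 (0.941) and Zfp395 (0.929). For Reln they were Anks1b (0.964) and Nyap2 (0.944), and Nyap2 shared with Reln a high value in mature adult replicate 1, with 4 peaks there, 0 in mature adult replicate 2 and 0 in young adult replicates 1 and 2. Among the genes compared, 24 had r above 0.9 with Prox1, 21 with Mmrn1, 7 with Reln and 3 with Lyve1. Only genes with a mean of at least 2 peaks were searched, so Reln and Pdpn could not be named for another member. None of the other members was.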

How the data were processed

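ATAC-seq peak lists of 9 libraries were used, 3 for each age, grouped by their titles. Per the file headers, each deposited list has 3 columns, the chromosome and both ends of an interval, and no score or signal, so the depth is unknown. Per the submitters' processing notes, cutadapt, Bowtie2 and Picard were used on build mm10, with no versions named. How peaks were called, at what threshold, and whether cut positions were shifted is not given in the sources used here. Between 31.0% and 38.9% of intervals filled more than 1 row, and each was counted once. Positions are as deposited, start counting is not stated, and they may be off by 1 bp. Width is end minus start, with a minimum of 150 bp.

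Gene ends came from RefSeq (GRCm38.p6), which gave no exons, so regions are described as inside or outside a gene. Strand and starts came from the RefSeq promoter table, which matched 4 of the 5 members; Lyve1 is described from its higher-coordinate end. Where genes overlapped, a peak went to the shortest gene holding its centre.

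Peak number and covered bases per gene, scaled to the mean library total, were tested as log2(number + 0.5) and log2(bases + 100) in R 4.3.3 by the moderated test of limma 3.58.1 with its trend option, all 9 libraries in 1 fit. The 14506 genes that averaged 1 peak or more entered, and Benjamini-Hochberg adjusted p-values under 0.05 were called. These scales understate changes of genes with few peaks. Peaks overlapping by at least 1 bp over libraries were merged into regions. Figures and sums used Python 3.11.15, numpy 2.4.6, pandas 2.3.3 and matplotlib 3.10.9.

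The members, lists and markers were chosen with earlier results of these data known. Named were the 5 members, list genes that passed both scaled and unscaled in at least 1 comparison, Flt4, Nrp2, Nr2f2, Sox18, Vegfc, Vldlr and Lrp8 whatever their result, and the 2 genes most like each member; 1 list gene is not reported here. Alternatives were no scaling, an equal number of widest peaks, other pseudocounts and filters, peaks within 10 kb or inside the gene, rows as deposited, peaks of at least 300 bp, limma without the trend, only the ages compared, a replicate block, and fits without single libraries.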

Additional observations from a re-analysis of the deposited data

How the results depend on the processing

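Of 992 recomputed log2 changes, 871 kept their direction and their side of the threshold and 17 turned direction. The number of members called lower or higher by peak number in young adult against infant libraries was 2, and 1 with peaks within 10 kb, inside the gene or with rows as deposited, 3 without both libraries that stood apart, and between 1 and 2 when single libraries were left out. In mature adult against infant libraries it was 1, became 2 without scaling and with peaks of at least 300 bp, 0 with the smaller pseudocount, with no filter, within 10 kb, inside the gene or with only the 2 ages in the fit, and ran from 0 to 2 when libraries were left out. By covered bases the number was 2 in both comparisons. In young adults it became 1 with the widest peaks or rows as deposited, 0 inside the gene, 4 without the 2 libraries that stood apart, and 3 with a mean of at least 3 peaks or only the 2 ages in the fit (2 to 3 with single libraries left out). In mature adults it became 1 with the widest peaks or rows as deposited and 3 without the 2 libraries that stood apart. Of the 5 regions in all libraries and 5 in infants alone, those in all libraries went to 3 when peaks had to cover 50% of the region, infant-only regions to 3 with the widest peaks and 3 within 10 kb (5 to 8 with libraries left out), and adult-only regions to 3 with the widest peaks.

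Directions turned in these cases, and where the values do not show the cause it was not tested. Unscaled, the changes were -0.18 and -0.10 for the Lyve1 peak number in young and mature adults, -0.083 and -0.16 for its covered bases (-0.079 for mature against young adults), and -0.0031 and -0.12 for Flt4. With rows as deposited, mature against young adults gave -0.13 for Prox1, -0.013 for Mmrn1 and, in bases, -0.027 for Mmrn1. With libraries left out, Reln in mature adults against infants ran from -1.38 (without mature adult replicate 1) to 0.50 (without mature adult replicate 2) in number and from -1.86 to 0.092 in bases. Lyve1 bases in mature against young adults were -0.11 with the widest peaks and ran from -0.014 (without young adult replicate 1) to 0.099 (without young adult replicate 3). With peaks inside the gene, mature adults gave -0.077 for Sox18 and 0.073 for Nr2f2. Within 10 kb, Maf in young adults was 0.53.

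Same-numbered libraries correlated between -0.171 and 0.169 in their deviations, so the numbers were not taken to pair libraries. With a replicate block, 2 members were called in young adults and 1 in mature adults, with Prox1 at an adjusted p of 0.0469 and Mmrn1 at 0.0516 in mature adults. Over all genes, the 5137 called in young adults ranged over 1399 to 6055, the 6425 in mature adults over 2292 to 7021, and the 136 between mature and young adults over 17 to 575. By covered bases the 5613 ranged over 1958 to 5982, the 7758 over 3636 to 8397 and the 140 over 0 to 832. Unknown depth limits all comparisons of peak number between ages.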

Other observations

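The interval at the Prox1 start was repeated in the deposited lists more often in infants. The same interval filled 5, 4 and 5 rows in the infant libraries, and 3, 2 and 2 rows in the young adult libraries. In the mature adult libraries it was 1 row for each of 2 separate peaks in replicate 1, 1 row in replicate 2, and 1 and 2 rows for the 2 peaks of replicate 3. What the repeated rows stand for is not given in the sources used here.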
